A study of Mus musculus with 6 samples.

Results

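The immunoglobulin genes were taken as all V segments of the heavy (Ighv), kappa (Igkv) and lambda (Iglv) chains plus 12 constant genes, found by symbol among the 55487 genes of the table of normalized counts. Of 360 such genes, 212 were kept because their normalized counts summed to at least 5 over the 6 libraries. These were 108 of 185 Ighv segments, 90 of 160 Igkv segments, 3 of 3 Iglv segments and 11 of 12 constant genes. The members were chosen by this summed level, so their levels are given as a description. Of the 148 genes left out, 112 had no read in any library. Ighv1-37, Ighv2-6-8 and Ighv4-2 lay just outside the minimum, with sums of 4.05, 4.94 and 4.98, and Ighv1-62, Igkv7-33 and Ighv1-32 lay just inside it, with sums of 5.08, 5.11 and 5.49. The sum was reached by 205 members on the pIpC libraries alone and by 68 on the PBS libraries alone, so that the choice favoured genes high in pIpC.

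RNA-seq was performed on GFP+ cells from femora and tibiae of C57BL/6 recipients of leukemia cells, with 3 libraries labelled PBS and 3 labelled pIpC. In both groups, bone marrow cells of CD45.2(+) Mx1-Cre Brd9fl/fl mice carrying the MLL-AF9 fusion oncogene (MA9, delivered with GFP by a retrovirus) were given, 1000 per mouse, to irradiated CD45.1(+) CD45.2(-) recipients. From the following day the mice had 3 injections, every other day, of PBS or of 20 mg/kg pIpC (polyinosinic-polycytidylic acid, which induces interferon and so Cre from the Mx1 promoter in interferon-responsive cells), and marrow was taken 10 days after injection. The labels give lethal irradiation in 2 fractions of 450 cGy, unstranded libraries and GFP+ cells, whereas the study's methods describe sublethal irradiation, stranded libraries and c-Kit+ cells. The study's methods give recipients of 6 weeks of age, and the labels do not say whether each library is a separate recipient, so the spread between libraries may be technical. Brd9, the gene to be deleted, had 1835 ± 176 normalized counts in PBS and 2103 ± 139 in pIpC (SD, n = 3; log2 fold change 0.20, SE 0.13, limma adjusted p = 0.259). The count covers the whole gene and not the floxed exons alone, so the groups are named by their labels.

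An immunoglobulin is built from heavy chains paired with kappa or lambda light chains. During B cell development the RAG recombinase joins a V segment to a J segment (through a D segment in the heavy chain), and each B cell thereby transcribes essentially a single rearranged V segment per chain, spliced to a constant gene. Ighm and Ighd are the first constant genes used, class switching replaces them with Ighg, Ighe or Igha, and antibody-secreting plasma cells hold very large amounts of these transcripts. Within a bulk library, the share of V reads on each segment is therefore the sum over the cells present, weighted by their RNA. A smaller number of cells and less RNA per cell cannot be told apart in such data.

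The V segments that carried the largest shares are shown as the last 288 bases of the V exon (GENCODE M21 transcripts, GRCm38, 5′ to 3′ on the coding strand). Capitals mark the bases that differ from the most similar segment of the same class. Igkv5-45 (chr6:69775750-69776037, minus strand) and Igkv5-43 (chr6:69823355-69823642, minus strand) are shown together because they differed at 3 of 298 aligned V exon bases and shared a run of 193 identical bases, longer than a read, so the split of reads between them is uncertain. Ighv1-78 (chr12:115868773-115869060, minus strand) led the heavy chain of pIpC replicate 1 and differed from its nearest segment, Ighv1-77, at 31 of 305 bases. Ighv11-2 (chr12:114048241-114048528, minus strand) and Igkv14-126 (chr6:67896355-67896642, plus strand) were high in several libraries. Ighv11-2 differed from Ighv11-1 at 4 of 307 bases and Igkv14-126 from Igkv14-111 at 27 of 298.
Igkv5-45: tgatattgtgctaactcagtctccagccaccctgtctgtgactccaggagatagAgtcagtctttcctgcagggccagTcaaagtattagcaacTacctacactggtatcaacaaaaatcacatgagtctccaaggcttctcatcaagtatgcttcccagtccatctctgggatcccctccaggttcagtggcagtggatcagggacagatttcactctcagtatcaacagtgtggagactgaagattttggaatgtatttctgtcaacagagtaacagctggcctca
Igkv5-43: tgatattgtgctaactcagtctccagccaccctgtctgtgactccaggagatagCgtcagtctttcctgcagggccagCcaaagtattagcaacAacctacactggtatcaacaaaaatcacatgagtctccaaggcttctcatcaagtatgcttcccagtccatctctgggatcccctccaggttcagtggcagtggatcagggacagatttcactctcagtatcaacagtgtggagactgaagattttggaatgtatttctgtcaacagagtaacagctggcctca
Ighv1-78: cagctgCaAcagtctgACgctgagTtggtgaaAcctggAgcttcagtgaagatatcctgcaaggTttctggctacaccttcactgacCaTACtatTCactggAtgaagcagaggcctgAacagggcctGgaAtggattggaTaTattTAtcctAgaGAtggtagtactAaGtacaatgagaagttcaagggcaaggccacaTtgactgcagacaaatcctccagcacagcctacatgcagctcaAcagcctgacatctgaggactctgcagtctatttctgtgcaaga
Ighv11-2: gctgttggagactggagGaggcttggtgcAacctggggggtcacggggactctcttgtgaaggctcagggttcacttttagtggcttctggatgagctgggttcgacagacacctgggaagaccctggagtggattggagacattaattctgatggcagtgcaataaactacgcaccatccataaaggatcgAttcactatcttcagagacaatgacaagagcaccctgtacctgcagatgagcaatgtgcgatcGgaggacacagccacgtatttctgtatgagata
Igkv14-126: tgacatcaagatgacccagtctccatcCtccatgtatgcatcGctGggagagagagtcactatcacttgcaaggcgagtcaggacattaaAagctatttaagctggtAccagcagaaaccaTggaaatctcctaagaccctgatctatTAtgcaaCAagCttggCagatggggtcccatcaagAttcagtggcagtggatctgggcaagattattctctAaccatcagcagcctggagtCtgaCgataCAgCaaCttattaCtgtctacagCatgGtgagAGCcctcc

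Among the V exons compared, 14 Ighv and 7 Igkv members were at least 98% identical to another annotated segment. Ighv1-62-2 and Ighv1-71 had identical V exons. Their normalized counts in pIpC replicates 1, 2 and 3 were 71.9, 268 and 40.6 for Ighv1-62-2 and 95.8, 107 and 33.8 for Ighv1-71. How reads matching several segments were treated is not given in the sources used here, so these values are uncertain.

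Reads on immunoglobulin members made up between 0.0149% and 0.0180% of the reads on genes of a PBS library, and 0.517%, 0.242% and 0.272% of those of pIpC replicates 1, 2 and 3. Per 1000000 reads on genes (RPM), Ighv reads were 37.3, 34.9 and 24.9 in PBS and 732, 425 and 428 in pIpC. Igkv RPM was 11.3, 12.2 and 11.7 in PBS and 1420, 431 and 505 in pIpC. All 3 pIpC libraries lay above all 3 PBS libraries in both classes, and pIpC replicate 1 was the highest. Iglv RPM, on the 3 lambda segments, was 0.938, 0.986 and 0.471 in PBS and 30.3, 50.4 and 42.3 in pIpC. For lambda, pIpC replicate 1 was the lowest of the pIpC libraries. The J segments, which no choice above used, showed the same contrast: 3 Ighj reads in PBS and 332 in pIpC, 4 and 293 Igkj reads, and 0 and 31 Iglj reads.

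Gene by gene, limma was fitted to log2(normalized count + 1) of the 15020 genes whose normalized counts averaged at least 10. Of the 212 members, 156 passed this filter and 56 did not. Of the 156, 151 were higher in pIpC at an adjusted p under 0.1, against 25.0% of the 15020 genes, and 1 was lower, against 20.4%. In 152 of them every pIpC library lay above every PBS library, against 30.5% of the 15020 genes. Their median log2 fold change was 5.04, and 4.53 with the 89 tested members that had at most 3 reads in every PBS library set to a lower bound, while that of all genes tested was 0.01. These counts are no support for a change of the class, since a member low in PBS could pass the filter only through its pIpC values. Over all genes, the calls split into 3750 higher and 3058 lower, and into 3244 and 4078 after quantile normalization, which moved the median of all genes to -0.12.

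The plot of group means shows this for each gene. The 4 tested members that did not pass the test were Ighv1-43, Ighv1-73, Igkv4-81 and Igkv6-14. Ighv1-43 had 23.4, 13.2 and 15.8 normalized counts in PBS and 14.0, 18.4 and 15.5 in pIpC, with overlapping groups (log2 fold change -0.09, SE 0.34). Igkv4-81 had 0 reads in PBS and 1.996, 125 and 1.93 normalized counts in pIpC, so that a single library carried the segment.

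**Figure D1:**
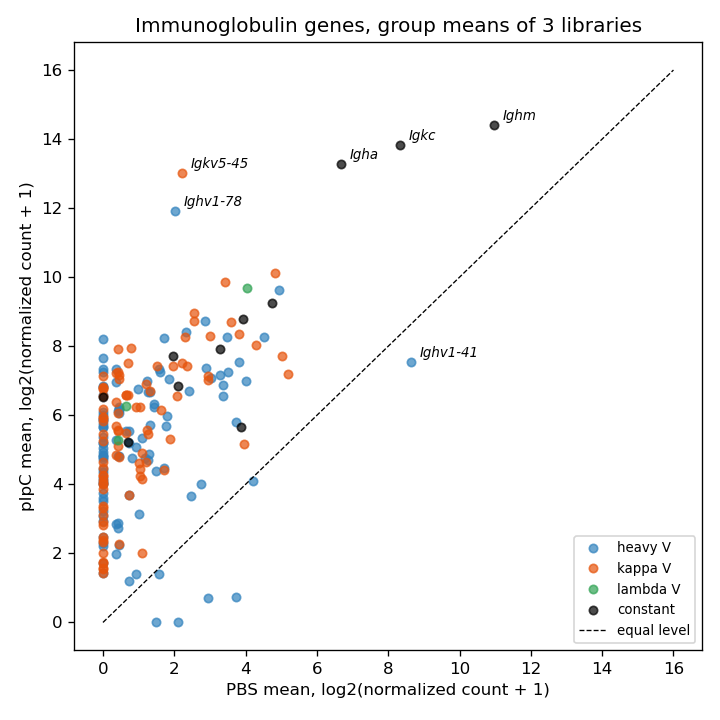
Mean normalized count of each immunoglobulin member in PBS (x axis) and pIpC (y axis) libraries, both as log2(normalized count + 1), n = 3 libraries per group, colored by class, with equality dashed. Nearly all points sit above the line, while Ighv1-41 sits below it at group means of 397 in PBS and 187 in pIpC.

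The heavy-chain constant genes were led by Ighm, which encodes the mu chain of IgM (chr12:113418558-113422730). Its normalized counts were 1587, 1749 and 2697 in PBS and 39147, 8397 and 17362 in pIpC, a log2 fold change of 3.19 (SE 0.54, limma adjusted p = 0.0039). Ighm was also the highest member in PBS, and pIpC replicate 1 stood above the other pIpC libraries. Igha, the alpha chain of IgA (chr12:113254830-113260236), had 83.9, 139 and 82.6 normalized counts in PBS and 5571, 14482 and 9447 in pIpC (log2 fold change 6.52, SE 0.37, adjusted p = 4.9e-05). Here the order of the pIpC libraries was the reverse, with replicate 2 highest and replicate 1 lowest. Ighd, co-expressed with Ighm in mature naive B cells, had 0, 2.02 and 7.92 normalized counts in PBS and 54.9, 158 and 130 in pIpC (log2 fold change 5.13).

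The gamma chain genes of IgG were far below Ighm and Igha. Ighg2b had 10.4, 30.4 and 36.2 normalized counts in PBS and 386, 835 and 600 in pIpC (log2 fold change 4.61, SE 0.51). Ighg2c had 2.60, 0 and 23.8 in PBS and 167, 348 and 210 in pIpC (log2 fold change 5.69, SE 1.09). In both genes the groups did not overlap and pIpC replicate 2 was the highest. Ighg1 had no read in PBS and 45.9, 96.0 and 132 normalized counts in pIpC, at least 30.4-fold higher against a floor of 3 reads per library. Ighg3 had 4.33, 4.05 and 32.8 in PBS and 33.9, 44.95 and 70.6 in pIpC. PBS replicate 3 lay just under the lowest pIpC library, and the call for Ighg3 (log2 fold change 2.33, SE 0.78, adjusted p = 0.056) was lost when any library other than PBS replicate 3 was left out, with an adjusted p of up to 0.173, and in edgeR (adjusted p = 0.112). Ighe, the IgE gene, did not reach the minimum sum and had 2 reads in pIpC replicate 1 and 1 in replicate 3.

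Of the light-chain constant genes, Igkc (chr6:70726435-70726966) had 226, 209 and 534 normalized counts in PBS and 23334, 9506 and 11237 in pIpC (log2 fold change 5.53, SE 0.46, adjusted p = 0.00019). The lambda genes were lower, with Iglc1 at 12.1, 12.1 and 18.1 in PBS and 307, 540 and 466 in pIpC (log2 fold change 4.84). Iglc2 had 3.46, 4.05 and 1.13 in PBS and 298, 159 and 167 in pIpC (log2 fold change 5.79). All pIpC libraries exceeded all PBS libraries for each of these genes, and pIpC replicate 1 was highest for Igkc and Iglc2 but lowest for Iglc1. Iglc3, with at most 1 read per PBS library, had 40.9, 34.7 and 32.9 in pIpC, at least 12.02-fold higher.

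**Figure D2:**
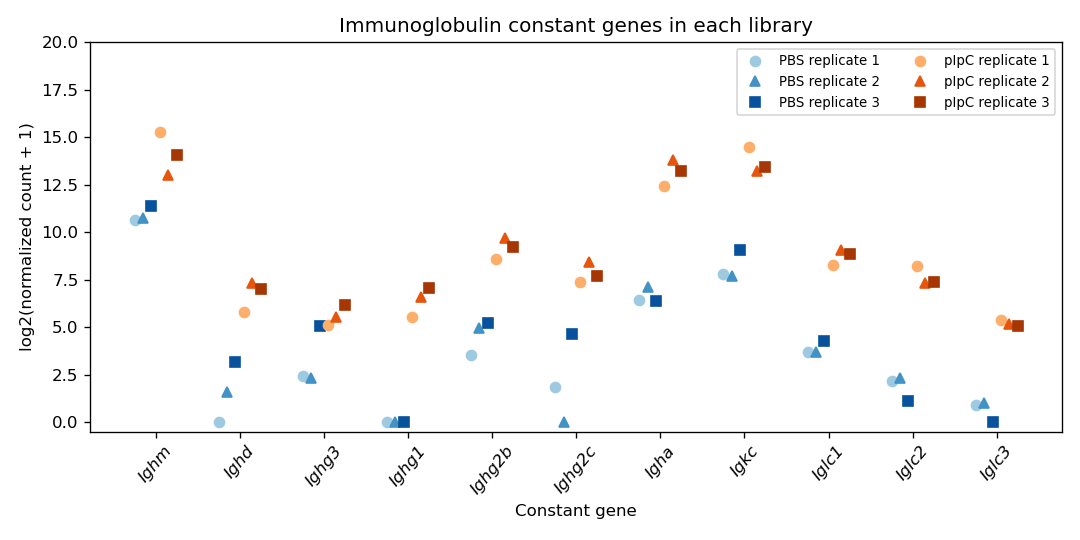
Log2(normalized count + 1) of each immunoglobulin constant gene (x axis) in each of the 6 libraries, PBS in blue and pIpC in orange. The pIpC points lie above the PBS points for all 11 genes, with the narrowest gap at Ighg3, and the order of the pIpC libraries differs between Ighm and Igha.

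As a share of heavy-chain constant reads, Ighm took 94.0%, 90.9% and 93.6% in PBS and 86.2%, 34.5% and 62.1% in pIpC replicates 1, 2 and 3 (for replicate 2, 95% exact binomial interval 33.9 to 35.1%). Igha took 4.97%, 7.21% and 2.87% in PBS and 12.3%, 59.4% and 33.8% in pIpC. The shares thus differed between the pIpC libraries by far more than counting error, and in all 3 the Ighm share lay below and the Igha share above those of the PBS libraries. Per exon length, replicate 2 had 42.0% Ighm and 51.2% Igha, so that Igha led there on either scale. The gamma genes together took 1.03%, 1.79% and 3.22% in PBS and a mean of 3.48% ± 2.02 (SD, n = 3) in pIpC, with overlapping groups.

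The kappa share of light-chain constant reads was 94.0% ± 2.19 in PBS and 94.8% ± 2.27 in pIpC (SD, n = 3), a difference within the spread between libraries. Over V segments it was 93.7% ± 2.13 and 93.2% ± 4.27. The balance of kappa and lambda reads therefore showed no difference beyond the spread between 3 libraries. For each Ighv read there were 2.34, 2.83 and 4.82 heavy-chain constant reads in PBS and 2.67, 2.51 and 2.86 in pIpC. In PBS, however, 467 of 834, 340 of 672 and 390 of 528 Ighv reads lay on the V pseudogene Ighv1-41. In pIpC it held at most 2.09% of Ighv reads. Its reads lower the PBS ratios, so these ratios are not comparable between the groups. Without it, PBS had 367, 332 and 138 Ighv reads against 1951, 1901 and 2545 heavy-chain constant reads. The pIpC libraries had 16810, 9357 and 9895 Ighv reads against 45494, 23845 and 28905. Constant reads thus exceeded V reads by more in PBS, which limits the comparison of Ighm levels and shares between the groups. The cause was not tested. For each Igkv read there were 1.03, 0.873 and 1.90 Igkc reads in PBS and 0.708, 0.966 and 0.975 in pIpC.

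Segment use within a class was compared as the share of the class's reads in a library, which does not use the summed level that chose the members. The heavy chain of pIpC replicate 1 was dominated by Ighv1-78, which took 67.3% of Ighv reads there and 1.26% and 1.04% in replicates 2 and 3. Its normalized counts were 2.60, 2.02 and 4.53 in PBS and 11429, 123 and 102 in pIpC. The kappa chain of the same library was dominated by Igkv5-45, at 75.2% of Igkv reads there and 0.301% and 0.336% in the others. Its normalized counts were 0.865, 0 and 10.2 in PBS and 24763, 29.6 and 38.7 in pIpC. In both chains, then, the excess lay in the same single library. The limma call for Igkv5-45 (log2 fold change 6.82, SE 2.57, adjusted p = 0.081) was lost without PBS replicate 1 or without PBS replicate 2, at adjusted p values of 0.148 and 0.176, and also with a pseudocount of 10 (0.155) and after quantile normalization (0.113).

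Igkv5-43, whose V exon is nearly the same as that of Igkv5-45, followed it in pIpC replicate 1 with 7.64% of Igkv reads, against 1.66% and 1.01% in replicates 2 and 3. Of the reads on this pair, 90.8% lay on Igkv5-45 in replicate 1 (exact interval 90.4 to 91.1%), but 15.3% in replicate 2 (10.5 to 21.3%) and 25.0% in replicate 3 (18.5 to 32.5%). The pair together took 82.8% of the Igkv reads of replicate 1, and how its excess divides between the 2 segments is uncertain for the reason given with their sequences. In PBS replicate 3, 34 of 248 Igkv reads lay on the pair, 9 of them on Igkv5-45.

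Without Ighv1-78, Igkv5-45 and Igkv5-43, pIpC replicate 1 had 240 Ighv and 244 Igkv RPM, below the 419 and 424 Ighv and the 423 and 499 Igkv RPM of replicates 2 and 3. These 3 segments held 76.4% of the V reads of replicate 1. The values without them were computed after the shares had been seen. All 3 pIpC libraries still exceeded the PBS libraries, which had at most 37.1 Ighv and 12.2 Igkv RPM.

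After Ighv1-78, Ighv11-2 had the highest mean share of Ighv reads over the pIpC libraries, although Ighv1-53 led in pIpC replicate 2 and Ighv1-41 in every PBS library. Its shares were 4.92%, 5.80% and 2.27% in PBS and 4.86%, 3.41% and 12.3% in pIpC, so that the groups overlapped. Its normalized counts were 35.5, 39.5 and 13.6 in PBS and 825, 331 and 1197 in pIpC (log2 fold change 4.63, SE 0.58, adjusted p = 0.001). Ighv11-1, its close relative, had at most 19.3 normalized counts in any library. Ighv11-2 and Ighv11-1 shared a run of 162 identical bases, longer than a read, so the split of reads between them is uncertain. Igkv14-126 took 16.6%, 13.1% and 5.24% of Igkv reads in PBS and 3.63%, 5.09% and 14.1% in pIpC. Its normalized counts were 36.3, 31.4 and 14.7 in PBS and 1197, 501 and 1625 in pIpC (log2 fold change 5.22, SE 0.52, adjusted p = 0.00036). The shares in pIpC replicate 1 were lowered by the segments that led it. Without Ighv1-78, Ighv11-2 took 14.8% of Ighv reads in replicate 1 and 12.4% in replicate 3. Without Igkv5-45 and Igkv5-43, Igkv14-126 took 21.1% and 14.3% of Igkv reads in the same libraries. In replicate 2, Ighv1-53 and Igkv1-110 led instead. Both segments are known from the B-1 cell antibodies that bind phosphatidylcholine, and the normalized counts of both were highest in pIpC replicate 3 and lowest in pIpC replicate 2.

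Further leading segments differed between pIpC libraries. Ighv1-26 took 1.09%, 3.86% and 7.26% of Ighv reads in pIpC replicates 1, 2 and 3. Ighv3-6 took 0.981%, 5.003% and 3.72%, and Ighv1-9 took 0.352%, 2.52% and 6.21%. Ighv1-4, with no read in PBS, took 0.347%, 0.200% and 5.43%, so that replicate 3 held most of it. In the kappa chain, Igkv1-110 took 0.870%, 6.59% and 4.79%, and Igkv10-96 took 0.573%, 4.41% and 5.596%. Both were low in replicate 1, where Igkv5-45 took most of the reads. Igkv19-93 was by far the highest in replicate 3, with 0.212%, 0.758% and 9.66% (69.9, 74.6 and 1113 normalized counts). Igkv3-4 behaved likewise, with 0.0970%, 0.550% and 7.26% (31.9, 54.1 and 836 normalized counts).

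**Figure D3:**
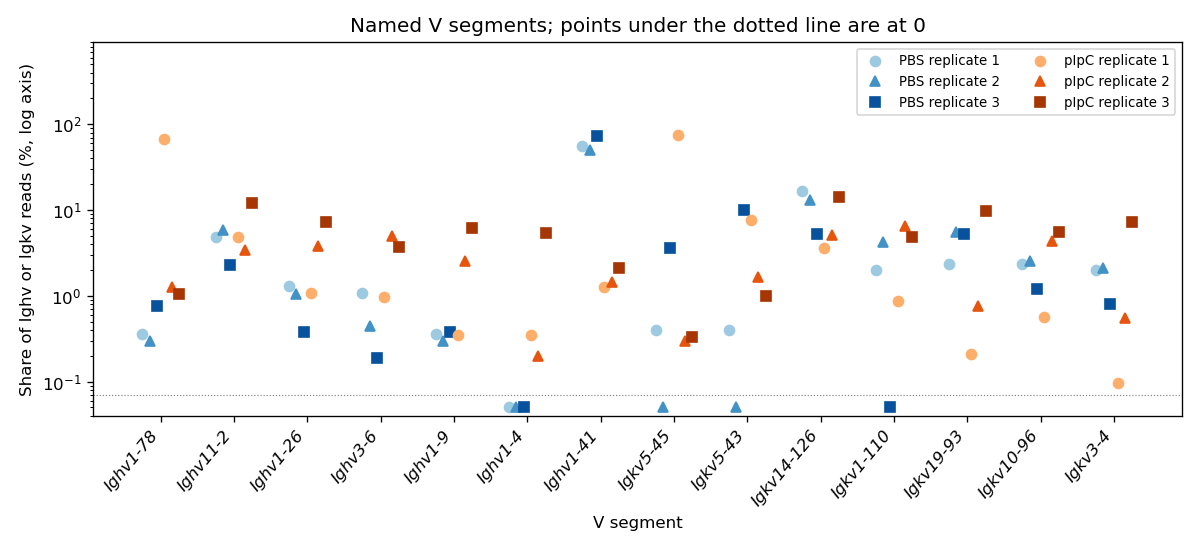
Share of Ighv or Igkv reads (%, log axis) on each named V segment (x axis) in each library, PBS in blue and pIpC in orange, with points under the dotted line at 0. Ighv1-78 and Igkv5-45 stand at 67.3% and 75.2% in pIpC replicate 1 alone, and Ighv1-41 stands above 50% in every PBS library.

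The lambda segments were few and less variable. Iglv1 took 82.2%, 89.4% and 90.1% of Iglv reads in pIpC replicates 1, 2 and 3, Iglv2 took 11.1%, 7.19% and 7.01%, and Iglv3 took 6.68%, 3.46% and 2.91%. The order Iglv1, Iglv2, Iglv3 held in all 3 pIpC libraries. Iglv1 had 16.4, 18.2 and 11.3 normalized counts in PBS and 578, 1029 and 869 in pIpC (log2 fold change 5.65, SE 0.30, adjusted p = 3.7e-05). Iglv2 and Iglv3 had at most 2 reads in any PBS library and were at least 25.3-fold and 12.7-fold higher in pIpC.

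The spread between libraries exceeded counting error for most segments. Of the 28 Ighv segments with a mean share of at least 1% over the pIpC libraries, 27 had a variance between libraries over 10 times the binomial variance, with a median ratio of 82.2. For the 26 such Igkv segments the ratio was over 10 in all 26, with a median of 173. The largest ratios were those of Ighv1-78 (9330), Ighv1-4 (518) and Ighv11-2 (402), and of Igkv5-45 (13612), Igkv19-93 (1132) and Igkv3-4 (862). The highest share was at least 2 times the lowest in 25 of 28 Ighv and 26 of 26 Igkv segments, and at least 10 times in 5 and 11. Since a large share of 1 segment lowers all others in that library, these ratios are not independent of each other. In pIpC replicate 1, Ighv1-78 held 67.3% of Ighv reads, and Igkv5-45 and Igkv5-43 together held 82.8% of Igkv reads. Every other share was lowered there, so the counts and ratios above follow in part from these segments. They were not computed without them.

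The effective number of segments (the inverse Simpson index, which is the number of equally used segments that would give the same concentration) was 2.19, 42.6 and 26.6 for Ighv in pIpC replicates 1, 2 and 3, and 1.75, 36.4 and 19.6 for Igkv. In both chains replicate 1 was the most concentrated and replicate 2 the most even. Without the 3 segments named above, it was 25.6, 41.9 and 26.1 for Ighv, and for Igkv its mean was 23.6 ± 10.3 (SD, n = 3) with a range from 16.3 to 35.4. The means over all segments, 23.8 ± 20.4 for Ighv and 19.3 ± 17.4 for Igkv, rest on the libraries used. Without pIpC replicate 2 they were 14.4 and 10.7. Reads fell on 99, 104 and 103 of the 108 Ighv members and on 83, 88 and 86 of the 90 Igkv members in the 3 pIpC libraries, a breadth that the choice of members by their sum largely fixes.

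**Figure D4:**
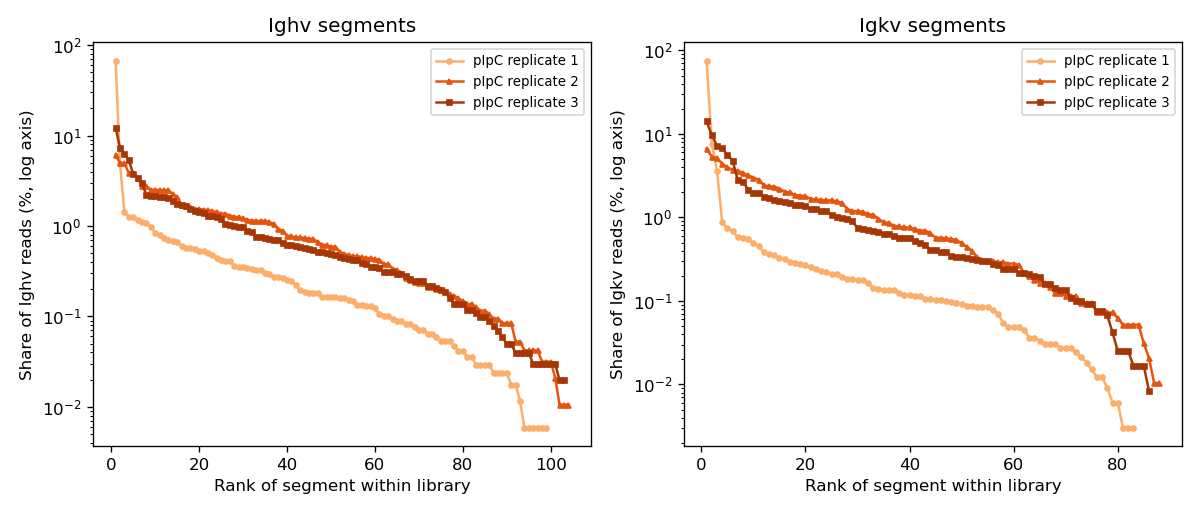
Share of Ighv (left) and Igkv (right) reads on each segment (%, log axis) against its rank within the library, for the 3 pIpC libraries. The curve of replicate 1 starts at 67.3% and 75.2% and then falls below the other curves, which start at 6.02% and 12.3% for Ighv and at 6.59% and 14.1% for Igkv in replicates 2 and 3.

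Despite these differences, the order of the segments was alike. Across the 108 Ighv members, Spearman's rho between pairs of pIpC libraries was 0.81, 0.78 and 0.81, and across the 90 Igkv members it was 0.78, 0.79 and 0.78. These are correlations across segments, which share locus and length and are not independent replicates. Ighv1-26, Ighv1-64, Ighv1-81, Ighv11-2 and Ighv3-6 were among the 10 most used Ighv segments of all 3 libraries, out of 17 segments in any of the lists. Igkv1-110, Igkv1-117, Igkv1-135, Igkv10-96 and Igkv14-126 were so for the kappa chain, out of 19. Of these, Ighv1-64 (named after its values were seen) had no read in PBS and 198, 479 and 211 normalized counts in pIpC, at least 98.3-fold higher.

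By V family, defined by the number in the symbol, Ighv1 took 84.9%, 58.6% and 60.2% of Ighv reads in pIpC and 87.6%, 77.2% and 92.8% in PBS. Without Ighv1-78 it took 53.9%, 58.0% and 59.7% in pIpC. The pseudogene Ighv1-41 alone held 56.0%, 50.6% and 73.9% of Ighv reads in PBS. Single segments thus carried much of the Ighv1 share and lowered the shares of the other Ighv families in those libraries. Ighv1 is also the largest family, with 58 of the 108 Ighv members. Ighv5 took 2.003%, 8.01% and 4.32% in pIpC and at most 0.893% in PBS, and Ighv14 took 0.875%, 3.99% and 1.67% in pIpC with no read in PBS. Among kappa families, Igkv4, with 25 members, took 2.01%, 15.2% and 12.5% in pIpC and 40.7%, 16.1% and 19.0% in PBS. Igkv1 took 2.28%, 18.4% and 10.5% in pIpC. Without Igkv5-45 and Igkv5-43, Igkv4 took 11.7%, 15.5% and 12.7% in pIpC, and Igkv1 took 13.3%, 18.8% and 10.6%.

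By position, the annotated segments were ordered by distance from Ighm or Igkc and divided into 4 bins of equal number. The bin nearest Ighm (0.154 to 0.675 Mb) held 9.42%, 20.1% and 22.7% of Ighv reads in pIpC, and the farthest bin (1.77 to 2.59 Mb), which holds Ighv1-78, held 79.1%, 34.7% and 29.2%. Without Ighv1-78 the farthest bin held 36.2%, 33.9% and 28.4%, and the 4 bin means lay between 21.3% and 32.9%. For Igkv, the bin of Igkv5-45 and Igkv5-43 (0.847 to 1.48 Mb) held 85.0%, 16.8% and 13.9%, and 12.5%, 15.1% and 12.7% without the pair. The farthest Igkv bin then held the most in replicates 1 and 2, at 44.3% and 35.1%. In replicate 3 it held 32.2%, against 32.4% in the bin nearest Igkc. Reads were thus spread over the whole of both loci in every pIpC library once those segments were set aside.

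**Figure D5:**
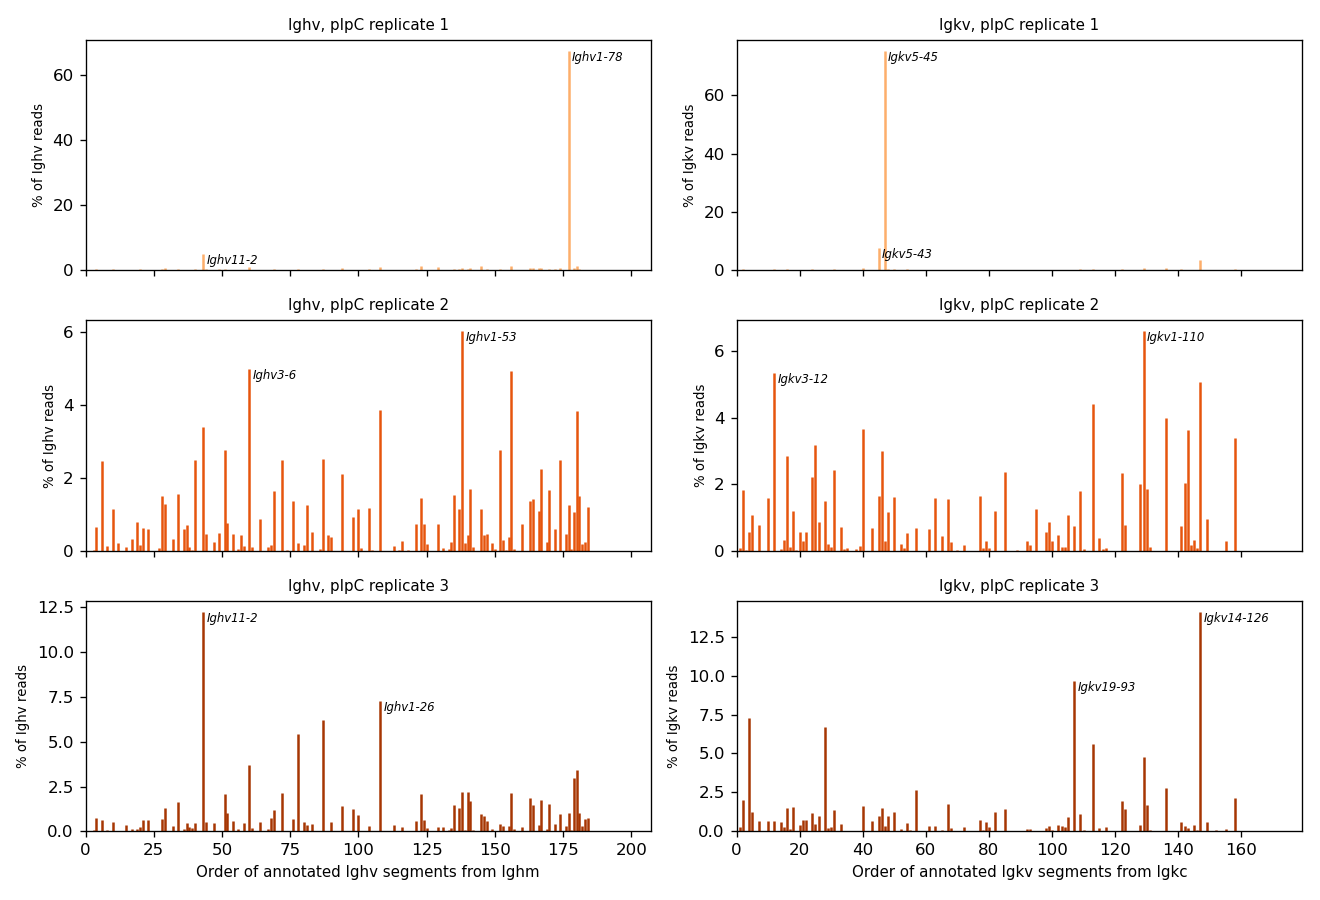
Share of Ighv (left) or Igkv (right) reads on each segment in pIpC replicates 1 to 3 (rows), with annotated segments ordered from Ighm or Igkc on the x axis and the 2 highest of each library named. A single bar of 67.3% or 75.2% carries replicate 1, and bars of up to 14.1% spread over the loci in replicates 2 and 3, on separate scales.

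PBS libraries had a different leading segment. Ighv1-41, annotated as a V pseudogene (chr12:114932371-114932782), had 404, 344 and 441 normalized counts in PBS and 215, 141 and 204 in pIpC, and was the only tested member that fell (log2 fold change -1.10, SE 0.22, adjusted p = 0.0075). The groups did not overlap. It held 56.0%, 50.6% and 73.9% of Ighv reads in PBS and between 1.26% and 2.09% in pIpC. No other annotated gene overlapped it, and its nearest segment, Ighv1-29, was 94.98% identical. In a fit without the filter, of the 27901 genes with a value above 0, 182 members were higher and 3 lower. The share of all genes called in that fit is not given here, so these counts are no support for a change of the class. Besides Ighv1-41, the members lower were Ighv1-23 and the pseudogene Ighv1-27, named after their values were seen. Ighv1-23 had 19.0, 13.2 and 4.53 normalized counts in PBS and at most 1.02 in pIpC. Ighv1-27 had 9.52, 6.07 and 4.53 in PBS and at most 1.93 in pIpC. Ighv1-23 was 98.36% identical to Ighv1-15, which averaged 2.02 normalized counts in PBS and 153 in pIpC. The part of read assignment between these segments was not tested.

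Because of Ighv1-41, the effective number of Ighv segments in PBS was 2.87 ± 0.970 (SD, n = 3), and without it 17.9 ± 2.62. The PBS shares rest on few reads, 528 to 834 per library for Ighv and 236 to 253 for Igkv. The leading Igkv segments in PBS differed between libraries: Igkv4-59 with 34.4% in replicate 1, Igkv5-39 with 13.6% in replicate 2 and Igkv15-103 with 14.9% in replicate 3. Igkv15-103 was the steadiest of these, at 13.0%, 10.2% and 14.9% in PBS and 0.545%, 2.33% and 1.94% in pIpC.

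Genes of the B lineage were counted beside the immunoglobulin genes. Of a list of 28, 27 were tested, 24 were higher and 3 lower in pIpC, against 25.0% and 20.4% of all genes tested, and the median log2 fold change was 5.54. Of the 28, 10 had at most 3 reads in every PBS library. Among the genes called higher, only Cd79a, Cd79b and Tcf3 averaged at least 10 normalized counts in PBS (20.6, 174 and 1657). All others called higher could pass the filter only through pIpC, so these counts are no support for a change of the list. Rag1, which cuts the segments for joining, had 0.87, 0 and 0 normalized counts in PBS and 105, 275 and 295 in pIpC. Dntt, which adds bases at the joins, had 0, 0 and 5.66 in PBS and 211, 449 and 418 in pIpC, and Pax5, the B cell identity factor, had 0.87, 0 and 0 against 131, 266 and 258. These were named after their values were seen. Of the 24 genes called higher, pIpC replicate 1 was the lowest pIpC library in 19 and the highest in 3, whereas it was the highest for Ighm and Igkc. The 3 highest genes of the list in pIpC were Cd37, a tetraspanin of leukocytes (-0.55, adjusted p = 0.056), Tcf3, a transcription factor (0.28, adjusted p = 0.092), and Pou2f2, the octamer-binding factor Oct-2 (-1.02, adjusted p = 0.014), as limma log2 fold changes. Ikzf3 also fell (-1.65, adjusted p = 0.0011). Summed over the list, normalized counts were 9235 to 12693 in PBS and 10207 to 12198 in pIpC, ranges that overlap, with Cd37 and Tcf3 making up most of the sum in each. The call for Cd37 was lost without any of the pIpC libraries, and that for Tcf3 when any library other than PBS replicate 3 was left out, with adjusted p values of up to 0.161 and 0.295. The Tcf3 call was also lost with the replicate block (adjusted p = 0.228), with no filter (0.176), after quantile normalization (0.404) and in edgeR (0.117).

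Of 16 genes of a plasma cell list, 14 were tested, 8 were higher and 1 lower, against 25.0% and 20.4% of all genes tested, and the median log2 fold change was 1.36. Of the 16, 3 had at most 3 reads in every PBS library. Among the genes called higher, only Jchain, Irf4 and Tnfrsf13b averaged at least 10 normalized counts in PBS. The others called higher could pass the filter only through pIpC. Jchain, which joins IgM and IgA into polymers, had 65.8, 80.0 and 88.3 normalized counts in PBS and 8335, 4401 and 4190 in pIpC (log2 fold change 6.09, SE 0.29, adjusted p = 2.6e-05). Sdc1, the plasma cell surface marker CD138, had 8.65, 2.02 and 7.92 in PBS and 212, 88.9 and 73.5 in pIpC. Mzb1, a chaperone of IgM assembly, had at most 1 read in PBS and 46.9, 35.8 and 41.6 in pIpC. Of the 8 genes called higher, pIpC replicate 1 was the highest pIpC library in 7 and the lowest in 1; Sdc1 and Mzb1 were named after their values were seen. Xbp1, a factor of the secretory program that myeloid cells also express, had 4588 ± 560 in PBS and 4899 ± 328 in pIpC (SD, n = 3; log2 fold change 0.10, adjusted p = 0.593), and passed the test without PBS replicate 3 (log2 fold change 0.19, adjusted p = 0.056). Ssr4, of the translocon, had 3265, 3506 and 7782 in PBS and 2889, 2512 and 2660 in pIpC (adjusted p = 0.126), and passed the test once PBS replicate 1 or PBS replicate 3 was left out (adjusted p = 0.075 and 0.0051), after quantile normalization (0.053), in edgeR (0.088) and in DESeq2 (0.047). Fkbp11, a folding enzyme of secretory cells, fell (log2 fold change -1.57, SE 0.35, adjusted p = 0.014).

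Markers of other blood cells moved in the same libraries, and their part in these results was not tested. Of the T and NK cell list 9 of 9 tested genes were higher, with a summed normalized count of 193 to 330 in PBS and 4019 to 4638 in pIpC, most of it Nkg7. For this and the next 3 lists, the share of all genes tested that were higher was 25.0%. A gene averaging under 10 normalized counts in PBS could pass the filter only through pIpC. This held for every tested T and NK cell gene but Nkg7, and every erythroid gene but Klf1 and Tfrc. It also held for Siglech, Cd209a, Xcr1 and Clec9a of the dendritic cell list, and for no gene of the neutrophil list. Trac had no read in PBS and 8.98, 7.15 and 5.80 normalized counts in pIpC. Of the erythroid list 10 of 10 were higher (1847 to 3073 in PBS, 8162 to 10702 in pIpC). Of the neutrophil list 9 of 10 were higher (76043 to 150541 in PBS, 2042167 to 2134764 in pIpC). Of the dendritic cell list 7 of 8 were higher (999 to 1744 in PBS, 1935 to 2777 in pIpC). No gene of these lists was at 0 in all 6 libraries. Unlike the immunoglobulin sums, the neutrophil sum varied little between the 3 pIpC libraries.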

How the data were processed

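RNA of 6 bone marrow samples (3 PBS, 3 pIpC) was sequenced. The authors deposited 1 table of gene counts normalized by a size factor per library, used here as a signal; the submitters' processing notes list HISAT2 (2.2.1), SAMtools, featureCounts, Subread, edgeR and GRCm38, whereas the study's methods describe STAR and RSEM on mm10, and which made the table is not settled. Divided by a step found for each library, the values above 0 came out whole within 0.01 (100% in each library), so read counts were recovered from the deposited table; for pIpC replicate 1 this step was 0.998, close to 1, and its recovery rests on that division alone. Recovered reads on genes ranged from 19277439 to 22378154 in PBS and from 22348517 to 23586722 in pIpC. Every column of sample values was used.

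Symbols were available for 55141 of 55487 identifiers, and positions, exons and V exon sequences came from GENCODE M21 (GRCm38). limma 3.58.1 (R 4.3.3) with an intensity trend was fitted to log2(normalized count + 1) for genes with a mean of at least 10, without a replicate block, at a Benjamini-Hochberg adjusted p under 0.1, 2-sided. Shares were computed in Python 3.11.15 (scipy 1.17.1) from recovered reads, with exact Clopper-Pearson 95% intervals, which cover counting error only; no test was made on shares. At most 3 reads in every library of a group was the floor, against which folds are given as lower bounds.

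The members and gene lists were chosen with earlier results of these data known. Genes were named by rule: the constant genes; the 5 Ighv, 5 Igkv and 3 Iglv segments of highest mean share in pIpC; the 3 Ighv and 3 Igkv of largest variance ratio at a mean share of at least 1%; the 3 members highest in PBS; the 3 on either side of the minimum sum; and, of the B lineage and plasma cell lists, the 3 highest in pIpC and those lower. Others were named after their values were seen. Alternatives were quantile normalization, median centring, pseudocounts of 0.1 and 10, a minimum mean of 50, no filter, each library left out, a replicate block, edgeR 4.0.16 and DESeq2 1.42.0 on recovered counts, an adjusted p under 0.05, and, for shares, a minimum sum of 20, no pseudogenes, reads per exon length and 3 bins. The limma script was tested on simulated data.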

Additional observations from a re-analysis of the deposited data

How the results depend on the processing

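Members called numbered 152 in the limma fit and between 145 and 152 under the other pseudocounts, quantile normalization, median centring, the replicate block, edgeR, DESeq2 and an adjusted p under 0.05; without the filter they were 185 of 212 tested, and with a mean of at least 50 only 72, of 72 tested, since fewer genes entered. None of the 152 changed sign under these settings or with a library left out. In the main fit 25.0% of the 15020 genes tested were higher and 20.4% lower. The share of all genes under each other setting is not given beside the member counts. These counts therefore show only how the member calls depend on the settings. With a library left out, members called ranged from 147 to 154, named immunoglobulin genes from 25 to 27, B lineage genes from 25 to 27, plasma cell genes from 9 to 11 and all genes from 4650 to 9783. The mean effective number ranged from 14.4 to 34.6 for Ighv and from 10.7 to 28.0 for Igkv, the Ighm share from 48.3% to 74.2%, the kappa share from 93.6% to 95.9% and the share nearest Ighm from 14.7% to 21.4%; a left-out PBS library cannot move these pIpC values. Replicate numbers did not pair the libraries (correlations of deviations -0.117, 0.143 and 0.041); the replicate block called 6095 genes against 6808, and 152 members. Of 516 checks on 35 named genes, 488 kept direction and side of the threshold, 22 lost and 6 gained the call, and 0 reversed; the cause was not tested.

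Added after the data were seen: without Ighv1-78, Igkv5-45 and Igkv5-43 the effective numbers were 31.2 and 23.6 and the share nearest Ighm 24.0%, and without Ighv1-41 the Ighv number was 23.2. Low read numbers limit the PBS shares, and near-identical segments limit single-segment values.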
